A study of Mus musculus with 7 samples.

Results

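Homer1, Homer2 and Homer3 are the 3 genes of the mouse Homer family of postsynaptic scaffold proteins. All 3 were chosen by name, and the peaks of Fos within 50 kb of each gene's span were collected from each of 6 peak lists. The lists held 80 such peaks of 111142 in all, and these fell into 48 merged sites of 68873 in the whole data set. Homer1 had 31 sites, Homer2 had 10 and Homer3 had 7. Fos was mapped by chromatin immunoprecipitation and sequencing (ChIP-seq) in the hippocampus of wild-type C57BL/6J mice aged 2 months. Of these, 3 libraries came from mice given kainic acid, a glutamate receptor agonist that provokes seizures, at 10 mg/kg in 2 intraperitoneal injections 30 min apart. Only animals with seizures of level 4 were taken, 1 h after the first injection, and 3 libraries came from mice given saline (PBS). The labels do not give the number of animals per library or say that libraries came from separate animals, so every p-value below measures only the spread between libraries.

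Homer proteins bind proline-rich stretches of other synaptic proteins through an EVH1 domain, and the long forms join into larger complexes through a coiled coil. They tie metabotropic glutamate receptors to calcium release channels of the endoplasmic reticulum and to Shank scaffolds. The short form Homer1a, made from Homer1 after neuronal activity, lacks the coiled coil and loosens these links. Fos pairs with Jun proteins to form AP-1, which binds the letters TGACTCA.

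Spans are those of RefSeq on GRCm38.p6, the assembly that UCSC calls mm10. Homer1 (gene 26556) lies on the plus strand at chr13:93303757-93405129 and is 101 kb long. Homer2 (gene 26557) lies on the minus strand at chr7:81600481-81706925 and is 106 kb long. Homer3 (gene 26558) lies on the plus strand at chr8:70282880-70294361 and is 11.5 kb long. Exons were not analysed here, so a site is placed along the gene and not in an exon or intron. Positions are given in kb from the start of the span in the direction of the gene.

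Promoter sequence from RefSeq (GRCm38.p6) was searched because regions of all 3 kainic acid lists overlapped the promoter windows of Homer1 and Gm42400. Gm42400 is a long noncoding RNA gene upstream of Homer2. Not every peak in these merged regions reached the start itself. A window ran from 250 bases before to 50 bases after a start. It was searched on both strands for TGACTCA, the AP-1 motif, for the cAMP response element (CRE) TGACGTCA, and for TGACG, the first 5 letters of the latter. This short form was added after the Homer1 sequence was seen, and every full CRE also holds it. The 250 bases before the Homer1 start, chr13:93303507-93303756 on the plus strand, are shown with the copies of TGACG in capitals. For the other 2 sequences capitals mark the AP-1 motif. These are chr7:81731278-81731338 upstream of Gm42400, and chr7:81610039-81610099 upstream of Gm44570, a long noncoding RNA gene inside Homer2. Both are written on the plus strand.
Homer1 upstream: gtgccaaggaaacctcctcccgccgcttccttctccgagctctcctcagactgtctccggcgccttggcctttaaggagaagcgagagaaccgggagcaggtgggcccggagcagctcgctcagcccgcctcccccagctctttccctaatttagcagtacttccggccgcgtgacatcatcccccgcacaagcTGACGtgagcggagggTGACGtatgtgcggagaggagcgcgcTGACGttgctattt
Gm42400 upstream: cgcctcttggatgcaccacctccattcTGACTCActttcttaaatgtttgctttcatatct
Gm44570 upstream: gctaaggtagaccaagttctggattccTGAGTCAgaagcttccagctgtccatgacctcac

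Kainic acid replicates 1, 2 and 3 had lists of 15009, 63197 and 29650 peaks, against 7, 3277 and 2 peaks in the saline replicates. Saline replicates 1 and 3 therefore had almost no peaks anywhere, and saline replicate 2 stood apart from them. A peak missing from a list was not called there, which does not show that the site was unbound. The deposited fold of a peak is the authors' own ratio to the local background within 1 library, so it was used only to rank peaks within a list. A rank is also given as a percentile, where 0 is the highest fold of the list and 100 the lowest. The lists differ in length, so percentiles of the same site in different lists are not levels on a common scale. Means and SDs of percentiles over lists are given as descriptions only, and they carry this difference in length. No read totals were used. The reads stacked at the summit, called the pileup here, were solved from the deposited fold and p-value and ranged from 12 to 80 with a median of 21.5 over the 80 peaks. The local background ranged from 2.25 to 8.71 reads.

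Fos peaks were called around Homer1 and Homer2 in every kainic acid list and in no saline list, whereas Homer3 had few peaks in either group. Homer1, whose product includes the activity-induced short form, had 12, 27 and 16 peaks in kainic acid replicates 1, 2 and 3 and 0 in each saline list. The mean under kainic acid was 18.3 ± 7.77 peaks (SD, n = 3). The groups did not overlap at Homer1. Homer2 had 2, 10 and 4 peaks under kainic acid, a mean of 5.33 ± 4.16 (SD, n = 3), and 0 in each saline list. Homer3 had 0, 5 and 2 peaks under kainic acid and 0, 2 and 0 in saline, with means of 2.33 ± 2.52 and 0.667 ± 1.15 (SD, n = 3 each). At Homer3 the groups overlapped.

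The numbers of peaks were compared on the log10(n + 1) scale by a two-sided exact permutation test. Its 20 assignments of libraries to groups allow no p below 0.1. The difference between the group means was 1.26 for Homer1 (exact permutation p = 0.100, adjusted over the 3 genes 0.150), with higher numbers in 3 of 3 kainic acid libraries. For Homer2 it was 0.739 (exact permutation p = 0.100, adjusted 0.150). For Homer3 it was 0.259 (exact permutation p = 0.700, adjusted 0.700), and it was 0.469 without kainic acid replicate 1, 0.0795 without kainic acid replicate 2 and 0.418 without saline replicate 2. None of the 3 could reach a p of 0.05 with 3 libraries in each group. Every kainic acid list held more peaks than any saline list at 33.4% of the 21896 protein-coding genes. Among protein-coding genes with a span 0.8 to 1.2 times as long, this share was 50.6% for the length of Homer1 and 52.4% for that of Homer2. The separation of the groups at Homer1 and Homer2 was therefore shared by about as many genes of like length as not.

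Relative to the length of each list, Homer1 took 0.80, 0.427 and 0.540 of every 1000 peaks in kainic acid replicates 1, 2 and 3. Saline replicate 2 had 0 of 3277 peaks at Homer1, with an exact Clopper-Pearson 95% upper bound of 1.13 per 1000 peaks that covers counting error only. This bound lay above the share in all 3 kainic acid lists, so a lower share of the list in saline was not detectable. For Homer2 the shares were 0.133, 0.158 and 0.135 per 1000 peaks, also under that bound. For Homer3 the share was 0.610 per 1000 in saline replicate 2 (95% interval 0.0739 to 2.20), against 0, 0.0791 and 0.0675 in the kainic acid lists. On this scale Homer3 was higher in saline, and the group means differed by -0.155 per 1000 peaks (exact permutation p = 1.00).

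**Figure D1:**
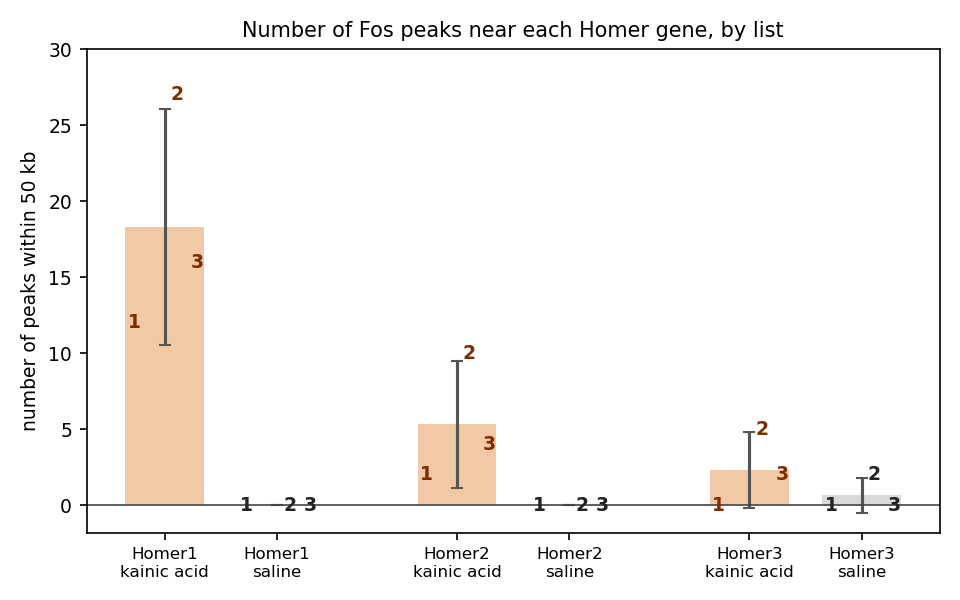
Number of Fos peaks within 50 kb of each Homer gene (vertical axis, peaks) by group (horizontal axis), with bars at the mean, error bars of 1 SD (n = 3) and digits at the value of each replicate. Kainic acid values for Homer1 run from 12 to 27 and all saline values for Homer1 and Homer2 are 0, while the Homer3 groups overlap.

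Within the kainic acid lists, Homer1 had more peaks than Homer2 in 3 of 3 lists although the 2 genes are nearly equal in length. The difference in log10(n + 1) was 0.525 ± 0.116 (SD, n = 3). An exact sign-flip permutation test gave p = 0.25, which is the smallest that 3 pairs allow. The bases covered by peaks at Homer1 came to 4.99, 11.9 and 9.49 kb in replicates 1, 2 and 3.

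Replicate support differed between the 3 genes. Of the 31 merged sites at Homer1, 17 were in a single kainic acid list (4 in replicate 1, 11 in replicate 2 and 2 in replicate 3). A further 6 were in 2 lists and 8 were in all 3. At Homer2, 6 of 10 sites were in replicate 2 alone, 2 were in 2 lists and 2 were in all 3. At Homer3, 3 of 7 sites were in replicate 2 alone, 2 were in 2 lists, 0 were in all 3, and 2 were in saline replicate 2 only. Most single-list sites were thus from replicate 2, the longest list. Sites in at least 2 kainic acid lists are called kainic acid regions below: 14 at Homer1, 4 at Homer2 and 2 at Homer3. At least 1 such region lay within 50 kb of 62.7% of all protein-coding genes, and at least 1 region in all 3 lists within 50 kb of 42.5%. The presence of a region at each Homer gene was thus the common state. The numbers rested on replicates 2 and 3: without either of them Homer1 had 8 regions, Homer2 had 2 and Homer3 had 0, and without replicate 1 they had 14, 4 and 2.

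The number of regions set Homer1 apart from most genes of its length, and did not do so for Homer2 or Homer3. Of 1195 protein-coding genes of like span, 15 (1.26%) had at least as many regions as the 14 of Homer1. The median of these genes was 2.00 and the highest number was 23. Counting only regions in all 3 lists, 14 genes (1.17%) had at least as many as the 8 of Homer1. Homer2, with 4 regions, was matched or passed by 414 of 1139 genes of its length (36.3%), whose median was 2.00. Homer3, with 2 regions, was matched or passed by 856 of 2118 genes (40.4%), whose median was 1.00. Per 100 kb of window the 3 genes held 6.95, 1.94 and 1.79 regions. These are positions among genes, given without a test.

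**Figure D2:**
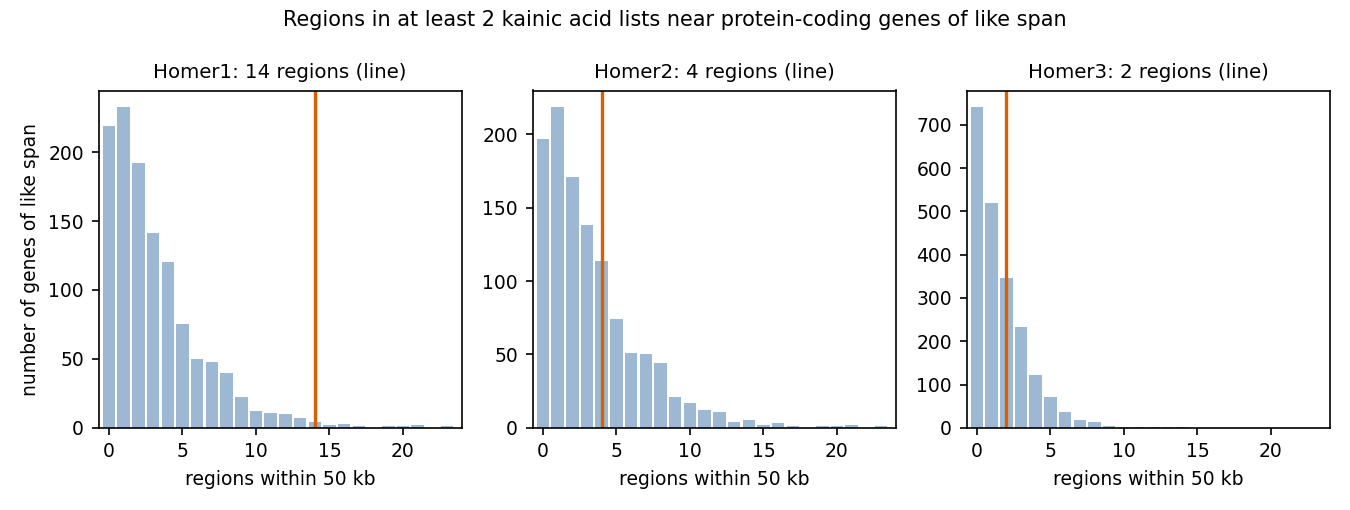
Distribution of the number of kainic acid regions within 50 kb (horizontal axis) over protein-coding genes of like span (vertical axis, number of genes), with 1 panel per Homer gene and a line at that gene. Homer1, at 14 regions, lies in the far right tail above a median of 2.00, whereas Homer2 at 4 and Homer3 at 2 lie in the body of their distributions.

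The Homer1 peaks formed a block with empty flanks. All 55 peaks lay between a peak at -4.71 kb, upstream of the start, and the region at 66.1 kb. That last region ended 67.2 kb into the gene, at 66.3% of its span and 34.2 kb before its end. No list had a peak in the rest of Homer1 or in the 50 kb downstream. On the upstream side the next peak of any list was 229 kb away, in kainic acid replicate 2, at a fold of 4.27 and percentile 54.5. On the downstream side the next peak was 94.4 kb beyond the end of the gene, in the same replicate, at a fold of 2.75 and percentile 97.1. The block therefore ended well inside the 50 kb limit on both sides. The empty downstream stretch covered nearly all of Jmy (chr13:93430097-93499808), the next large protein-coding gene.

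Of the 13 regions that overlapped the Homer1 gene, 8 (61.5%) were in the first of 3 equal parts of its span, 5 (38.5%) in the middle part and 0 in the last. In 938 genes of like span with a known strand, 40.2% of 1696 regions were in the first part, 31.8% in the middle and 28.1% in the last. Among the 101 of these genes with at least 5 regions, 12 (11.9%) also had none in the last part. The 8 include the region over the start, whose summit lay upstream at -0.275 kb. Counted by summit, no kainic acid list had a peak in the last part of Homer1. Only replicate 2 had more peaks in the first part than in the middle. Replicate 1 had 5, 5 and 0 peaks in the 3 parts, replicate 2 had 13, 10 and 0, and replicate 3 had 7, 7 and 0. The median gap between neighbouring regions was 5.70 kb, with a range of 0.504 to 12.0 kb.

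**Figure D3:**
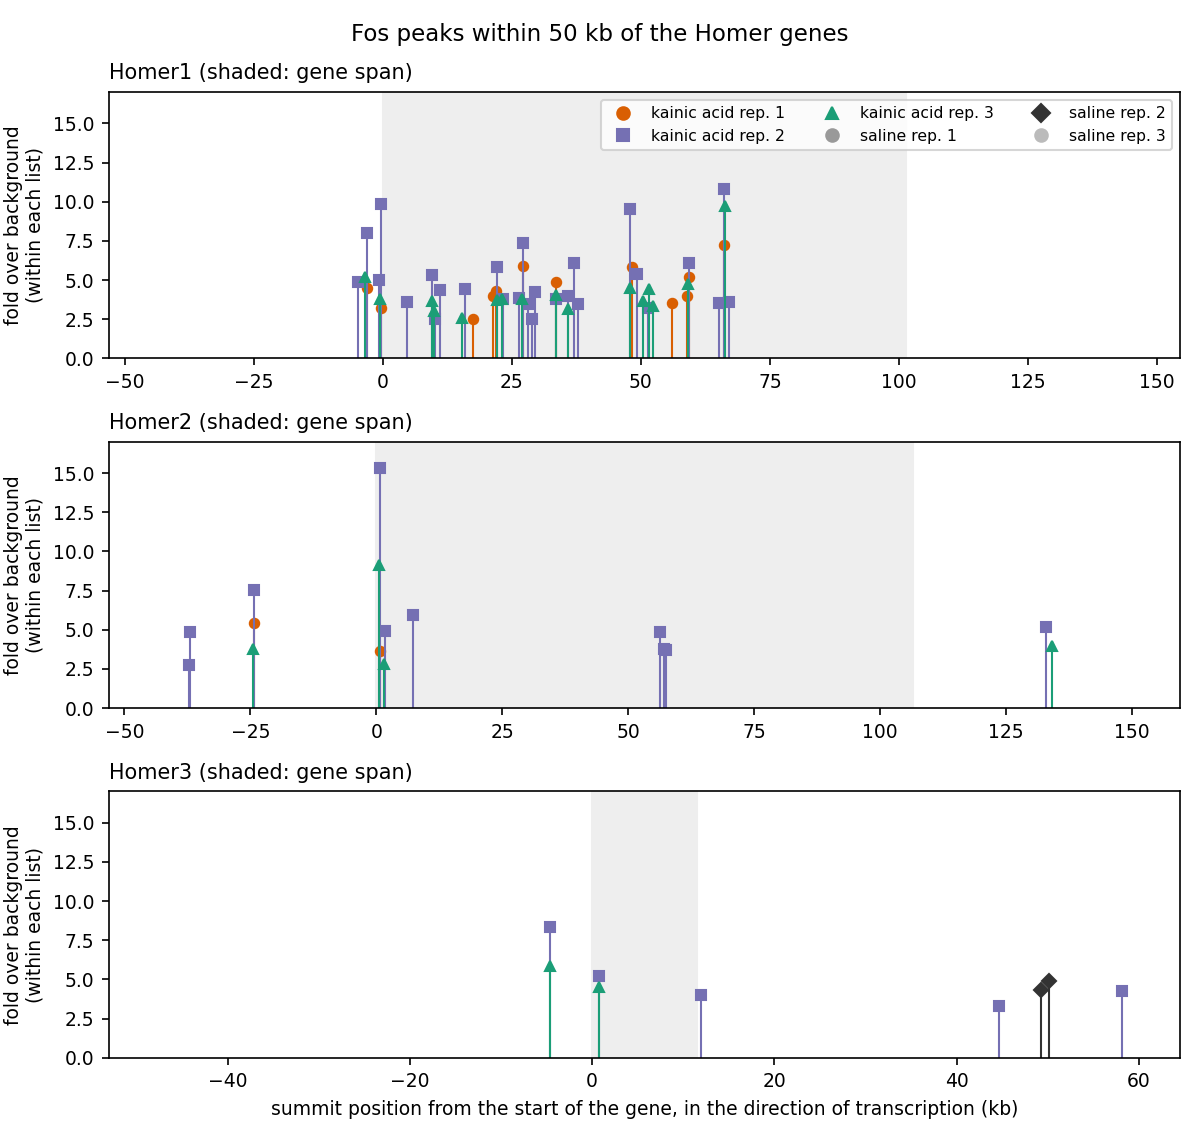
Peaks along each Homer gene, with the distance from the start of the gene in kb on the horizontal axis and the fold of each peak in its own list on the vertical axis, for each library with a peak (saline replicates 1 and 3 have none). Homer1 peaks stop at the site at 66.1 kb in all 3 kainic acid lists, and the only saline peaks are the pair from replicate 2 downstream of Homer3.

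The site of highest rank at Homer1 was the last one, at 66.1 kb, chr13:93369445-93370923, a region of 1479 bp. Its fold was 7.25, 10.8 and 9.71 in kainic acid replicates 1, 2 and 3, at rank 1137 of 15009, 2700 of 63197 and 627 of 29650. The pileups were 30, 40 and 49 reads over backgrounds of 3.28, 2.80 and 4.15. Replicate 2 had 2 peaks in this region, and the values are those of the higher one, as at the start of the gene below. The mean percentile was 4.65 ± 2.75 (SD, n = 3), so the site was among the top 10% of every list, and the 3 summits lay within 94 bp. The sites at 47.9 kb (chr13:93351358-93352505) and 59.3 kb (chr13:93362818-93363598) were the next in mean percentile among the regions that all 3 lists shared inside the gene. The former had folds of 5.84, 9.53 and 4.48 and a mean percentile of 19.9 ± 15.0. The latter had folds of 5.18, 6.09 and 4.73 and a mean percentile of 27.1 ± 4.25, with a like percentile in each list. Of the regions that all 3 lists shared inside Homer1, the 3 of highest mean rank were thus the 3 farthest from the start. This order was not seen in every list. In replicates 1 and 2 the region at 27.1 kb ranked above the one at 59.3 kb, at percentiles of 17.2 against 28.4 and 13.5 against 22.4. In replicate 1 it also ranked just above the one at 47.9 kb, at 17.2 against 17.5. In replicate 3 the region at 27.1 kb ranked below the one at 59.3 kb, at 57.2 against 30.6.

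Other Homer1 regions in all 3 lists were at 22.1 kb (chr13:93325704-93326113), 27.1 kb (chr13:93330609-93331246) and 33.5 kb (chr13:93337143-93337478). Their mean percentiles were 46.7 ± 19.2, 29.3 ± 24.3 and 50.8 ± 17.2 (SD, n = 3 each). The region at 27.1 kb had percentiles of 17.2, 13.5 and 57.2 in replicates 1, 2 and 3. Of all 14 Homer1 regions, 6 were in replicates 2 and 3 but not in replicate 1, at 9.54, 10.0, 15.7, 23.1, 35.9 and 51.5 kb. The region at 10.0 kb, with percentiles of 98.8 and 88.7, was close to the lowest folds called in both lists. The 17 sites in a single list had percentiles from 22.2, for the site of replicate 2 at 37.0 kb, to 99.5, for the site of replicate 1 at 17.5 kb.

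Upstream of Homer1, a region at -3.10 kb (chr13:93299796-93301164) had folds of 4.52, 7.97 and 5.19 and a mean percentile of 26.5 ± 17.7 (SD, n = 3). The merged region over the start itself, chr13:93302587-93303893, held a peak in all 3 lists, but only a peak of replicate 2 reached the start. Its fold was 3.20 at rank 13850 of 15009 in replicate 1, 9.88 at rank 3541 of 63197 in replicate 2, and 3.81 at rank 16729 of 29650 in replicate 3. The pileups were 26, 70 and 36 reads over backgrounds of 7.44, 6.19 and 8.71. The percentiles were 92.3, 5.60 and 56.4, with a mean of 51.4 ± 43.6 (SD, n = 3). Over the 551 regions of all 3 lists that overlapped a promoter window, the median percentiles were 50.0, 9.22 and 24.8, in the same order of lists. A region present in all 3 kainic acid lists overlapped a promoter window at 2.31% of the 17491 protein-coding genes with such a window. Homer1 was 1 of these 404 genes, and Homer2 and Homer3 were not. The window of the second RefSeq start of Homer1, 4.28 kb into the gene, was overlapped by no region in any list.

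The printed Homer1 promoter held TGACG at 56, 40 and 14 bases before the start and neither TGACTCA nor TGACGTCA. Only the peak of replicate 2 reached these letters. The peaks of replicates 1 and 3 ended upstream of them. Of 32851 windows of the same length genome-wide, 20.8% held TGACG or its reverse complement, and 206 (0.627%) held at least 3 copies. A kainic acid region overlapped 1535 windows, and 36.8% of those held the short form against 20.0% of the other windows. For the AP-1 motif these shares were 19.8% and 4.49%, with 5.20% over all windows, and for the full CRE 3.71% and 1.70%, with 1.79% over all. Windows with these letters are described here and are not binding sites by themselves.

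At Homer2, which encodes a second scaffold of the family, the site of highest rank in replicates 2 and 3 lay just inside the gene, 0.659 kb from the start, at chr7:81705889-81706832. Its fold was 3.65 at rank 11747 of 15009 in replicate 1, 15.3 at rank 743 of 63197 in replicate 2 and 9.11 at rank 812 of 29650 in replicate 3. The pileups were 21, 80 and 60 reads over backgrounds of 5.03, 4.3 and 5.70. The pileup of 80 was the highest of all 80 Homer peaks. The site was in the top 3% of the lists of replicates 2 and 3 but only at percentile 78.3 in replicate 1, giving a mean percentile of 27.4 ± 44.1 (SD, n = 3). Without replicate 1 the mean percentile was 1.96, and without replicate 2 it was 40.5. Without replicate 3 the Homer2 region of best mean percentile was instead the one at -24.3 kb, at 18.2. Its peaks ended 43 bp short of the promoter window. The 250 bases before the Homer2 start had a GC content of 83.2%, against 62.4% for Homer1 and 68.0% for Homer3, and those of Homer2 and Homer3 held none of the 3 motifs.

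The other Homer2 region in all 3 lists was at -24.3 kb, upstream of the gene, at chr7:81730868-81731674, over the promoter of Gm42400. It had folds of 5.44, 7.52 and 3.77 in replicates 1, 2 and 3, at rank 3522, 8236 and 17697, and a mean percentile of 32.1 ± 24.5 (SD, n = 3). The AP-1 motif printed for Gm42400, at chr7:81731305-81731311 and 156 bases before its start, was covered by the peak in all 3 lists. The summits lay 114, 111 and 30 bp from the first letter of the motif. The motif printed for Gm44570, in contrast, was covered by no peak of any list. Of the 1709 windows genome-wide with an AP-1 motif, 17.8% were overlapped by a kainic acid region, against 4.67% of all windows.

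Of the remaining Homer2 regions, 1 was 1.54 kb inside the gene (chr7:81705190-81705623) with percentiles of 37.3 and 94.3 in replicates 2 and 3. The last was 134 kb from the Homer2 start, beyond the end of the gene and inside Whamm (chr7:81572937-81573714), at percentiles of 32.9 and 49.6. Whamm encodes a factor that promotes actin nucleation, and the region was nearer to the start of Whamm than to any part of Homer2. Beyond the sites at 0.659 and 1.54 kb, the body of Homer2 thus held no region present in 2 lists, unlike that of Homer1. The 6 sites of replicate 2 alone were at 7.36, 56.4, 57.1 and 57.4 kb inside the gene and at -37.0 and -37.2 kb, at percentiles from 23.4 to 97.3.

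Homer3, the shortest of the genes, had an upstream region at -4.57 kb, at chr8:70277795-70278598. Its fold was 8.36 at rank 6005 of 63197 in replicate 2 and 5.83 at rank 4561 of 29650 in replicate 3, with pileups of 49 and 38 reads, and it was not called in replicate 1. The mean percentile over the lists that held it was 12.4, and its summits lay within 5 bp. The other region, 0.732 kb inside the gene (chr8:70283224-70283831), had folds of 5.23 and 4.54 at percentiles of 32.7 and 34.7. Both regions rested on the same pair of lists, so without replicate 2 or without replicate 3 Homer3 had 0 regions. A CRE upstream of Cope, which encodes a coatomer subunit and lies downstream of Homer3, was covered by no peak. The 3 sites of replicate 2 alone were downstream of the gene, at 12.0 kb inside Ddx49, at 44.7 kb inside Gdf1 and Cers1, and at 58.1 kb inside Upf1, at percentiles of 63.7, 87.0 and 54.5.

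The only saline peaks near any Homer gene were both from saline replicate 2 and both lay inside Upf1, which encodes a helicase of nonsense-mediated decay. The first, chr8:70332130-70332361, was 49.3 kb from the Homer3 start with a fold of 4.31 at rank 1336 of 3277 and a pileup of 13 reads. The second, chr8:70332812-70333173, was at 50.1 kb with a fold of 4.93 at rank 549 and a pileup of 15 reads. Neither overlapped a kainic acid peak. A peak of saline replicate 2 lay within 50 kb of 30.3% of all protein-coding genes.

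**Figure D4:**
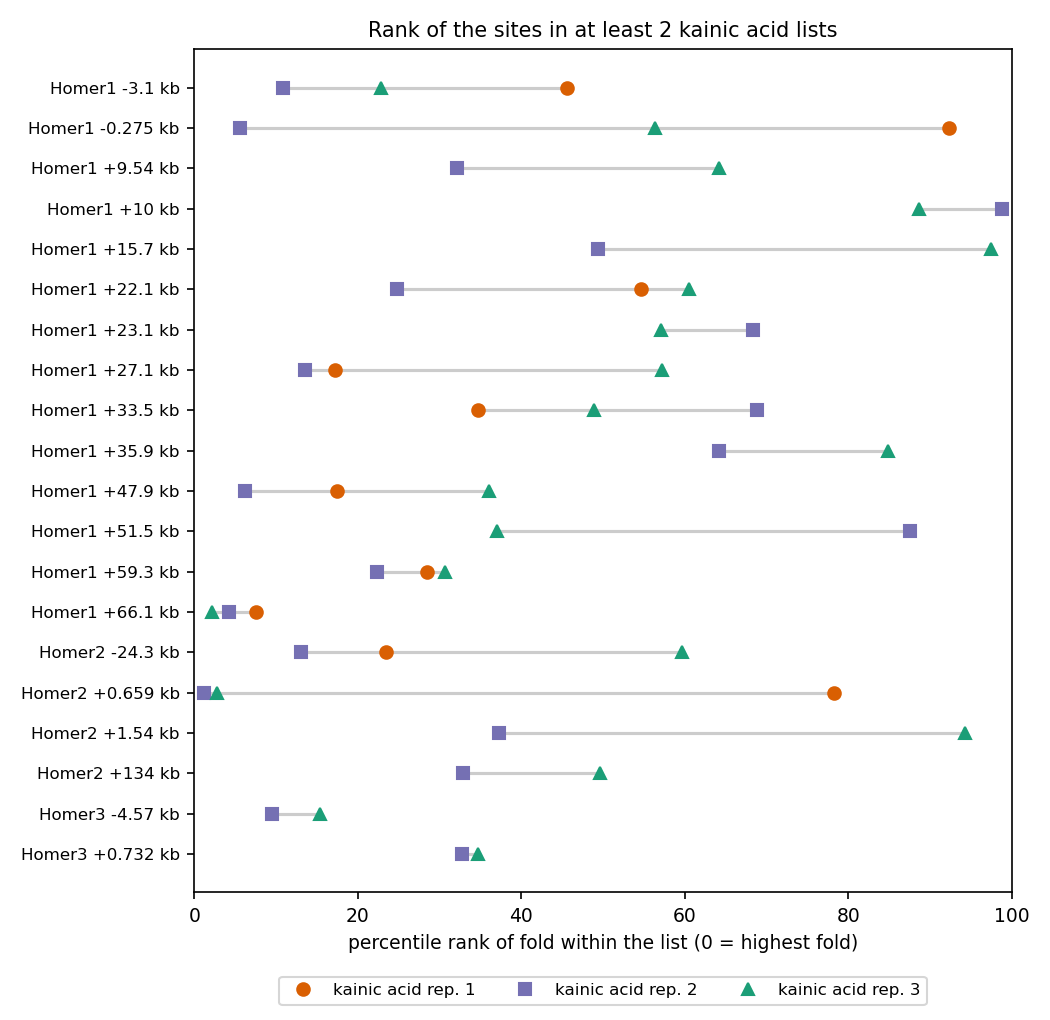
Percentile of the fold within each kainic acid list (horizontal axis, 0 is the highest fold) for the 20 kainic acid regions at the Homer genes, ordered by gene and by distance from the start in kb (vertical axis), with 1 symbol per replicate. The Homer1 site at 66.1 kb is near 0 in all 3 lists, whereas the sites at the starts of Homer1 and Homer2 each take both low and high percentiles, in lists of different length.

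Homer proteins act by holding other proteins together, so 15 genes of known binding partners and their complexes were set beside them. All 15 had at least 1 kainic acid region within 50 kb, against 62.7% of all protein-coding genes, and 14 had a region in all 3 lists, against 42.5%, the exception being Dbn1 (drebrin, an actin-binding protein of spines). Their spans were long, with a median of 338 kb against 17.1 kb over all genes, and longer windows hold more regions. Their median was 8.00 regions against 1.00 over all genes, and 14 of 15, all but Shank3, were above the median of genes of their own length. A peak of saline replicate 2 lay within 50 kb of 9 of the 15, against 30.3% of all protein-coding genes. At 11 of the 15 every kainic acid list held more peaks than any saline list, against 33.4% of all protein-coding genes. These shares over all genes were not matched for length, and the latter was 50.6% among genes of like span to Homer1.

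Dlgap1, which encodes a protein that links Shank to PSD-95, had the most regions, 76, and none of 75 genes of like span had as many. It had 52, 142 and 88 peaks in kainic acid replicates 1, 2 and 3 and 1 in saline replicate 2. Cacna1c, the pore-forming subunit of an L-type calcium channel, had 37 regions, with at least as many at 2.52% of 119 genes of its length. Shank2, a scaffold that Homer binds directly, had 24 regions, with at least as many at 6.76% of genes of like span. Ryr2, a calcium release channel, had 15 (27.2%). Grm5, a metabotropic glutamate receptor bound by Homer, had 12 (32.2%). Among these genes Dlgap1, Cacna1c and Shank2 thus stood high for their length, while Ryr2 and Grm5 did not. They were picked for their number of regions, which favours long genes, and shorter partners could stand as high for their length. Dbn1, of 14.7 kb, had 5 regions, with at least as many at 7.06% of genes of like span.

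The genes whose peak numbers over the 6 lists were most like those of Homer1 were Akap6, Rnf217, Grm5, Lrrc4c and Gria2, by the distance between log2(n + 1) values. Akap6, which anchors protein kinase A, had 12, 28 and 16 peaks in the kainic acid lists at a distance of 0.0506. Rnf217, a ubiquitin ligase gene, had 13, 27 and 15 at a distance of 0.138. Grm5 had 13, 25 and 16 at 0.151. Lrrc4c, a synaptic adhesion gene, had 11, 25 and 15 at 0.180, and Gria2, an AMPA receptor subunit gene, had 12, 24 and 17 at 0.183. None of the 5 had a saline peak. Rnf217 and Gria2, with spans of 108 and 123 kb, were near Homer1 in length, and the other 3 spans were 457 to 1314 kb.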

How the data were processed

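The data were 6 peak lists, 1 per library. Per the submitters' processing notes the tools were Trim Galore 0.6.4, Bowtie2 2.3.4.3, MACS2 and deepTools 3.5.0 with build mm10. The MACS2 version, cutoff and control are not given in the sources used here. Each list deposited by the authors has 10 columns, with a score, a fold (a linear ratio to local background), and the −log10 p and −log10 q of each peak. None is scaled between libraries. In the 4 longest lists −log10 q went down to 1.35 or 1.38. An input library was not analysed here.

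Peaks overlapping by at least 1 bp were merged. Numbers of peaks were compared by an exact permutation test on log10(n + 1). For each peak, the reads k at the summit and the background λ that give its fold, taken as (k + 1)/(λ + 1), and its Poisson p were found for 80 of 80 peaks within 0.001 in −log10 p. This relation is inferred, and pileups are not scaled for depth. Merging and solving were tested on simulated data. Python 3.11.15, pandas 2.3.3 and scipy 1.17.1 were used. Gene spans, starts and promoters came from RefSeq tables of GRCm38.p6. The genes named were the 3 Homer genes, their sites in 2 or more kainic acid lists or in a saline list, the nearest genes, the partners with no or the most regions, and the 5 genes most like Homer1 lying over 200 kb from it. The result of 1 partner gene is not reported here. The members and lists were chosen with earlier results of these data known. Alternatives were other reaches, −log10 q minimums, overlap rules, scalings, libraries left out and a replicate block.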

Additional observations from a re-analysis of the deposited data

How the results depend on the processing

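Of 142 values recomputed under another setting, 1 reversed, 31 moved by more than the limits used (1.5 times for counts, 1 SD over libraries for ranks, the exact 95% binomial interval for percentages), and 110 did not. For the tested differences in peak number only the direction was judged, since no p could pass 0.05. With 0 peaks in every saline list, the direction at Homer1 and Homer2 could not reverse. A replicate block could not change a difference, and peaks kept their full-list ranks under the −log10 q minimums. The 1 SD limit was also wide for Homer2. Part of the 110 thus could not have moved, so this tally does not measure how stable the results are. The reversed value was the Homer3 difference per 1000 peaks of the list, -0.155 (exact permutation p = 1.00). The Homer1, Homer2 and Homer3 regions, 14, 4 and 2, became 14, 2 and 2 at a reach of 10 kb and 14, 7 and 4 at 100 kb. With a minimum −log10 q of 10 they became 4, 2 and 2. They became 6, 2 and 2 with equal numbers of peaks per list, 8, 2 and 0 in all 3 lists, and 13, 2 and 2 with summits within 200 bp. Leaving out 1 library gave 8 to 14, 2 to 4 and 0 to 2, the low values without kainic acid replicate 2 or 3. The percentage of genes of like span with at least as many regions, 1.26, 36.3 and 40.4, became 0.502, 47.9 and 10.1 at 10 kb, and 3.43, 26.9 and 34.9 at 100 kb. It became 4.69, 25.9 and 12.5 at the minimum −log10 q of 10, and 1.17, 36.3 and 100 in all 3 lists. For Homer3 it was 30.4 at a minimum of 5. Leaving out 1 library gave 1.17 to 1.51, 33.8 to 40.6 and 38.7 to 100. Each 100 for Homer3 came where it had 0 regions, a number that every gene has or passes, so it holds no information. The causes of the other changes were not tested. The mean percentile of the strongest site stayed at 3.19 to 5.92 for Homer1 without any 1 library, and for Homer3 there was no value without replicate 2 or 3. Same-numbered libraries were not treated as pairs. The correlations of their deviations over 21896 genes were 0.338, 0.338 and 0.020, and those of differently numbered libraries ran from -0.339 to 0.338. With saline lists so unlike in length, these values cannot decide whether libraries were paired. A replicate block left the differences at 1.26, 0.739 and 0.259, and at 1.23 for the sum of the 3 genes, with exact sign-flip permutation p = 0.250, 0.250, 0.500 and 0.250, and 0.250 is the smallest that 3 pairs allow. The Homer2 mean percentile, 27.4 with an SD of 44.1, was 1.96 with a minimum −log10 q of 5 or 10. Both minimums dropped the peak of replicate 1 at this site (−log10 q of 4.61), so that value is a mean over replicates 2 and 3 only. Read depth was not used, and its part in the 2 nearly empty saline lists was not tested.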

Other observations

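The Homer2 site at 0.659 kb was among the regions of highest rank in kainic acid replicates 2 and 3 but at percentile 78.3 in replicate 1. This combination was looked up over all regions after it was seen. Of 1199 regions called in all 3 lists and in the top 5% of both other lists, 15 (1.25%) ranked beyond percentile 75 in replicate 1, and 2 of these 15 overlapped a promoter window. Regions not called in replicate 1 were not counted here. The median percentiles of the 1199 regions were 6.10, 1.21 and 2.15 in replicates 1, 2 and 3. Among regions in all 3 lists, the 551 over a promoter window had a median percentile of 50.0 in replicate 1, against 42.1 for the 11386 elsewhere. In replicate 2 these medians were 9.22 and 12.4, and in replicate 3 they were 24.8 and 24.7.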
